A study of Saccharomyces cerevisiae with 6 samples.

Results

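The genes described here serve stress defence, redox balance and storage carbohydrate metabolism in budding yeast, Saccharomyces cerevisiae. They were taken by gene symbol, from a list of named genes and of numbered gene families. Of 979 yeast genes on the array, 25 met the rule: 12 of glycogen and trehalose metabolism, 11 of redox defence, and 2 general stress genes, HOR2 and HOR7. The stress regulators named in the rule (MSN2, MSN4, YAP1 and SKN7) and the thioredoxin system (TRX and TRR genes) had no probe in the tables used. Among others without a probe were the glutathione synthesis genes (GSH1 and GSH2), CTT1, GLR1, AHP1, PRX1, HYR1, SOD1, GAC1 and NTH2. The DDR and TPS genes and the glutaredoxin genes other than GRX2 also had none. All these were not analysed here. Of the genes listed, 3 of 14 linked to glutathione, 4 of 8 peroxidase genes and 2 of 4 general stress genes were measured.

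The study compared 3 single-colour arrays of a wild type strain with 3 arrays of a strain overexpressing ACC1. ACC1 is the gene of acetyl-CoA carboxylase, which makes malonyl-CoA for fatty acid synthesis. The names of the strains, the promoter or plasmid that drove ACC1, the medium and the growth phase appear in no source used here. The labels do not say whether replicates were separate cultures, so p-values measure the spread between these samples only, which may be technical. The value used is the median foreground intensity of each spot in the deposited scanner tables, and all levels below are log2 intensities after quantile normalization.

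Yeast stores glucose as glycogen, a branched polymer, and as trehalose, a disaccharide that also protects proteins and membranes under stress. Glucose 6-phosphate is converted by phosphoglucomutase to glucose 1-phosphate and by UGP1 to UDP-glucose, from which glycogen and trehalose are built, and glycogen is opened again by the phosphorylase and the debranching enzyme. The genes of these pathways are well known as members of the general stress response, which the factors Msn2 and Msn4 switch on when protein kinase A activity is low, as in glucose limitation. Redox defence genes remove superoxide and peroxides and keep protein thiols reduced with glutathione, thioredoxin and NADPH, and many of them respond to the oxidant-sensing factor Yap1.

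Each gene was read by 1 probe of 35 to 37 bases printed in 2 to 4 spots. The probes of the 2 genes that passed the test and of 4 of the pairs of related genes described further on are shown, 5′ to 3′ as the files list them, because every value below depends on what these letters bind. Capitals mark the longest run that the probes of a pair share. HOR7 and GPH1 are not shown as pairs and have no capitals.
HOR7: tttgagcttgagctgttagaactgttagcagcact
GPH1: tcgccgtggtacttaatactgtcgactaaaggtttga
PGM1: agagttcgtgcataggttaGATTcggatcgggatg
PGM2: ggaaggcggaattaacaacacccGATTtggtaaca
GSY1: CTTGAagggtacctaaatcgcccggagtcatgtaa
GSY2: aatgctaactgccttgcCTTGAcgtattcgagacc
TSA1: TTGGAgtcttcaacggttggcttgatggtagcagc
TSA2: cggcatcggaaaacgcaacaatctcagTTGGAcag
OYE2: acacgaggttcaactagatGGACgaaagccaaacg
OYE3: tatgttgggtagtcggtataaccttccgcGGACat

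The HOR7 probe (gene YMR251W-A, chromosome XIII) lies at coding positions 52 to 86 and the GPH1 probe (YPR160W, chromosome XVI) at positions 2480 to 2516, by the positions in the probe names. In the 7 pairs of related genes measured, the longest run shared by the probes of a pair was 4 to 6 bases, and no probe of the 25 shared more than 11 consecutive bases with any other yeast probe on the array. Probes were compared with each other only, so binding of other transcripts was not tested. Probe names give positions in descending order. The reverse complement of the listed letters, read in the frame that the name gives, held no stop codon for any of 979 probes, whereas the letters as listed held a stop in that frame for 441 of them, 10 of these among the 25. The listed letters are therefore those of the strand complementary to the coding strand. The labelling protocol describes antisense amplified RNA, which pairs with the coding strand. Whether the printed probes carry the listed strand or its complement is stated in none of the sources used, and this question touches every value of the array.

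The ACC1 probe checks the labels: its level was 11.77 ± 0.10 (SD, n = 3) in wild type and 14.08 ± 0.07 (SD, n = 3) under ACC1 overexpression, 4.99-fold higher (log2 difference 2.32, standard error 0.07, limma adjusted p = 1.18e-07). The median yeast spot was 2.17-fold brighter on the wild type arrays before normalization. The array tables hold no background column, and where the scanner left background in the values, differences of dim genes are understated. Of the 25 genes, 20 lay above the 95th percentile of the 26 control probes on all 6 arrays, and none had a saturated spot. The other 5 were HOR2, PGM1, TSA2, OYE2 and OYE3, and OYE2 exceeded that level on no wild type array and on 1 ACC1 overexpression array. No array held RNA of both strains, and the tables used name no slide or scan. An effect of hybridization or scanning and the effect of the strain therefore cannot be told apart.

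Most of these genes differed little between the strains. HOR7, a gene of unknown function induced by hyperosmotic stress, and GPH1, the glycogen phosphorylase gene, were called higher in ACC1 overexpression. Their limma adjusted p of 0.0489 and 0.0413 lay just under the threshold of 0.05, and 23 of the 25 did not pass it. Over the whole array 3.47% of genes were called, 2.66% higher and 0.817% lower. Groups did not overlap for 9 of the 25, with 6 higher and 3 lower in ACC1 overexpression. The 6 include OYE2 and the 3 include PGM1 and OYE3, whose probes are dim. Among all genes 24.7% did not overlap, 13.3% higher and 11.4% lower. Of the 25 differences 15 were positive, against 46.4% of all genes, and the median difference was 0.021 on the log2 scale, against −0.0088 over all genes.

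**Figure D1:**
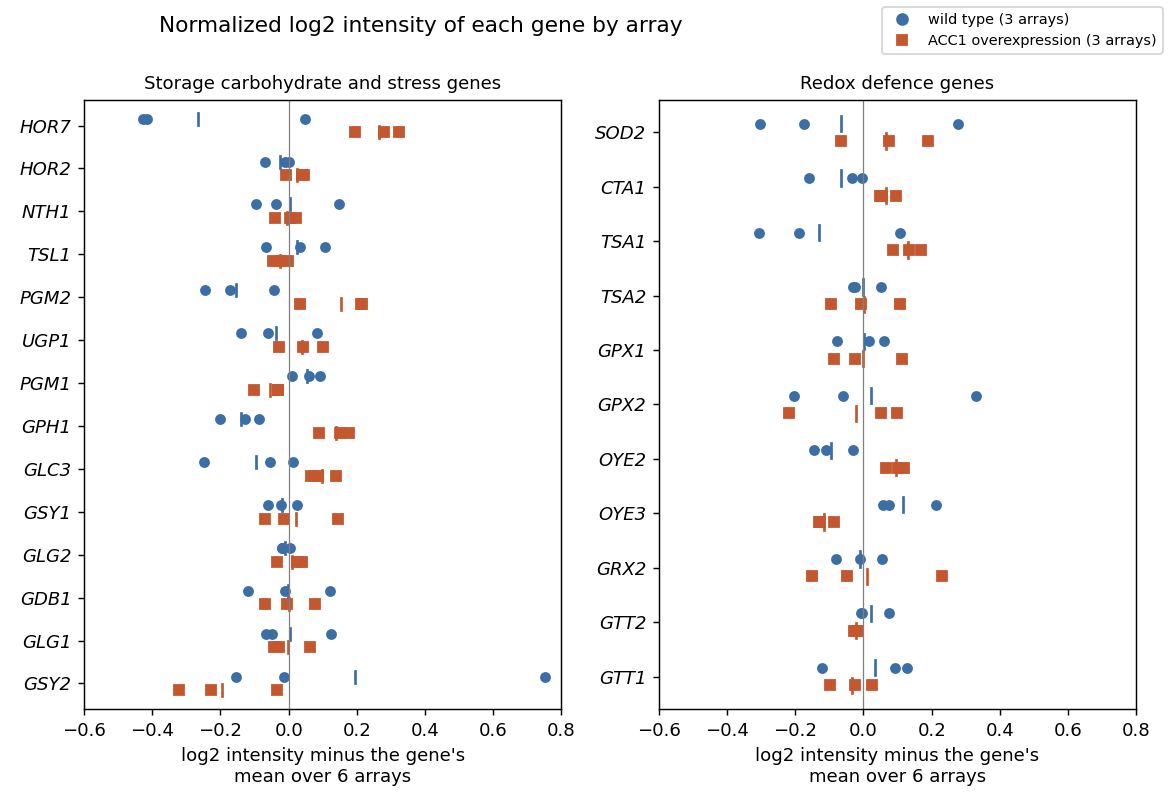
Normalized log2 intensity of each of the 25 genes on each array, minus the gene's mean over the 6 arrays (horizontal axis). Circles are the 3 wild type arrays, squares the 3 ACC1 overexpression arrays and short vertical lines the group means. HOR7, PGM2, GPH1, GLC3, CTA1 and OYE2 have all squares to the right of all circles, and PGM1, OYE3 and GTT2 all squares to the left. One wild type array of GSY2 lies far to the right.

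HOR7 held the call among the general stress genes. Its level was 13.30, 13.29 and 13.76 on wild type arrays 1 to 3 and 14.04, 13.91 and 13.99 on ACC1 overexpression arrays 1 to 3. All ACC1 overexpression values lay above all wild type values, and wild type replicate 3 stood well above the other wild type arrays. The log2 difference was 0.53 with a standard error of 0.12, a 1.44-fold higher signal (limma adjusted p = 0.0489). The gap varied with the array position: by the spot coordinates, arrays of replicate number 1, 2 and 3 began at layout rows 1, 63 and 125 in both groups, and the HOR7 signal was higher by 0.74, 0.62 and 0.23 within positions 1, 2 and 3. Wild type replicate 3 also had the brightest median spot of its group, at an intensity of 4565 against 3686 and 4109, and the part of array brightness in this result was not tested. Without wild type replicate 3 the difference was 0.68 (adjusted p = 4.69e-04). Leaving out wild type replicate 2 gave 0.46 (adjusted p = 0.206). The call was also lost without any single other array.

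HOR2 encodes a glycerol 3-phosphatase of glycerol synthesis, which yeast uses against high osmolarity. It stood at 11.06, 11.14 and 11.12 in wild type and at 11.13, 11.17 and 11.18 in ACC1 overexpression. The groups overlapped, with a difference of 0.05 (adjusted p = 0.631). The other gene of this enzyme, RHR2, stood 0.17 higher (adjusted p = 0.214) with groups that did not overlap.

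In storage carbohydrate metabolism, glycogen breakdown held the single call. GPH1, whose product releases glucose 1-phosphate from glycogen, stood at 12.26, 12.34 and 12.38 on the wild type arrays and at 12.62, 12.55 and 12.64 on the ACC1 overexpression arrays. The groups were separated by more than the range within either of them. The difference was 0.28 with a standard error of 0.06, or 1.21-fold (limma adjusted p = 0.0413), and it was 0.35, 0.22 and 0.26 within positions 1 to 3. GDB1, the debranching enzyme that acts after the phosphorylase, showed no such difference: its level spanned 12.20 to 12.44 in wild type and 12.25 to 12.39 in ACC1 overexpression, a difference of 0.00 (adjusted p = 0.987).

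The call of GPH1 held with cyclic loess (adjusted p = 0.0412), with the median over spots, with the filter on dim genes and without wild type replicate 3, and was lost without each of the other arrays (adjusted p from 0.0679 to 0.185). HOR7 and GPH1 were both lost with normexp background correction alone, with a common median and with trended, robust variances. Their differences stayed positive under all 17 of the settings recomputed for each gene, from 0.46 to 0.68 for HOR7 and from 0.21 to 0.38 for GPH1.

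Genes of glycogen synthesis held no call. GLC3, the branching enzyme, stood at 12.46, 12.66 and 12.72 in wild type and at 12.85, 12.79 and 12.77 in ACC1 overexpression, without overlap. Its difference of 0.19 (standard error 0.07) had an adjusted p of 0.195, and it was 0.12 without wild type replicate 1 and 0.09 with a common median. GLG1 and GLG2, the self-glucosylating initiators of a new glycogen chain, had differences of −0.01 and 0.02. The minor glycogen synthase gene GSY1 had a difference of 0.04 (adjusted p of the 3 genes from 0.797 to 0.977). The groups of all 3 overlapped.

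GSY2, the main glycogen synthase gene, had the most negative difference of the 25 and is singled out after its values were seen. Its level was 13.43, 12.66 and 12.52 in wild type and 12.64, 12.45 and 12.36 in ACC1 overexpression. Wild type replicate 1 alone lay far above the other 5 arrays, and the groups overlapped with or without it. The difference was −0.39 with a standard error of 0.20 (adjusted p = 0.323), and −0.11 without wild type replicate 1 (adjusted p = 0.541). Its 2 spots on an array differed more than those of most genes, with a standard deviation of 0.24 between spots against a median of 0.09 over all genes.

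The enzymes that supply glucose 1-phosphate and UDP-glucose differed among themselves. PGM2, the major phosphoglucomutase, stood at 12.19, 11.99 and 12.06 in wild type and at 12.44, 12.27 and 12.45 in ACC1 overexpression. All ACC1 overexpression values were above all wild type values, with a difference of 0.31 (standard error 0.08), and the gene missed the threshold with an adjusted p of 0.0657. It passed without wild type replicate 1 (difference 0.36, adjusted p = 0.0399). PGM1, the minor phosphoglucomutase, stood at 10.95, 10.99 and 10.91 in wild type and at 10.86, 10.86 and 10.79 in ACC1 overexpression. All its ACC1 overexpression values were below all wild type values. The probe exceeded the control level on 2 wild type arrays and 1 ACC1 overexpression array, and its difference of −0.11 did not pass (adjusted p = 0.309). With common-median scaling in place of quantile normalization it was 0.02, and with normexp at offsets of 50 and 0 it was −0.42 and −0.48 (adjusted p = 0.119 and 0.114). UGP1, the UDP-glucose pyrophosphorylase, had a difference of 0.08 (adjusted p = 0.594) with overlapping groups.

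Trehalose metabolism was read by TSL1, a large subunit of the trehalose synthase complex, and NTH1, the neutral trehalase that splits trehalose. TSL1 stood at 12.42, 12.52 and 12.59 in wild type and at 12.44, 12.48 and 12.46 in ACC1 overexpression. NTH1 stood at 11.71, 11.66 and 11.90 in wild type and at 11.75, 11.71 and 11.77 in ACC1 overexpression. For each gene the ACC1 overexpression values lay inside the wild type range, and the differences of −0.05 and −0.01 did not pass (adjusted p = 0.719 and 0.966). The standard errors were 0.06 and 0.07.

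In redox defence none of the 11 genes passed. At an unadjusted p under 0.05, 2 were higher (TSA1 and OYE2) and 1 lower (OYE3), and the probes of OYE2 and OYE3 are dim. Over all genes 20.1% passed that level, 10.6% higher and 9.5% lower. The enzymes against superoxide and hydrogen peroxide were represented by SOD2, the mitochondrial superoxide dismutase, and CTA1, the peroxisomal catalase. CTA1 stood at 11.31, 11.43 and 11.46 in wild type and at 11.51, 11.56 and 11.52 in ACC1 overexpression. Its groups did not overlap, with a difference of 0.13 (standard error 0.06, adjusted p = 0.263). SOD2 had the same mean difference of 0.13 but a wide wild type spread, at 12.95, 13.08 and 13.53 against 13.19, 13.33 and 13.44 in ACC1 overexpression (adjusted p = 0.631). The SOD2 difference moved with single arrays: it was 0.02 without wild type replicate 1 (adjusted p = 0.962), 0.08 without replicate 2, 0.30 without replicate 3 (adjusted p = 0.0469) and 0.07 without ACC1 overexpression replicate 3.

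Among peroxidases, TSA1, the abundant thioredoxin peroxidase, had the largest difference. It stood at 12.58, 12.46 and 12.88 in wild type and at 12.90, 12.86 and 12.94 in ACC1 overexpression. The ACC1 overexpression arrays lay close together, and wild type replicate 3 alone reached their level. The difference was 0.26 with a standard error of 0.10 (adjusted p = 0.188), and it was 0.38 without wild type replicate 3 (adjusted p = 0.0101) and 0.17 without wild type replicate 2 (adjusted p = 0.474). The log2 differences of TSA2, the stress-inducible relative of TSA1, and of GPX1, a phospholipid hydroperoxide glutathione peroxidase, were both 0.00. GPX2, of the same family as GPX1, stood at 13.37, 12.97 and 12.83 in wild type and at 13.13, 13.09 and 12.82 in ACC1 overexpression, with overlapping groups and a difference of −0.04 (adjusted p = 0.896).

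The glutathione-linked genes differed little. GTT1 and GTT2 encode glutathione S-transferases and GRX2 a glutaredoxin, which reduces protein disulfides with glutathione. GTT1 stood at 13.04, 13.25 and 13.29 in wild type and at 13.18, 13.13 and 13.06 in ACC1 overexpression, with a difference of −0.07 (adjusted p = 0.678). GTT2 stood at 11.66, 11.73 and 11.65 in wild type and at 11.63, 11.64 and 11.64 in ACC1 overexpression. Its groups did not overlap, though the values of all 6 arrays lay close together, and the difference of −0.04 did not pass (adjusted p = 0.706). GRX2 had a difference of 0.02 (adjusted p = 0.938) with overlapping groups.

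OYE2 and OYE3 encode the old yellow enzymes, flavin-containing oxidoreductases that use NADPH. OYE2 stood at 10.64, 10.67 and 10.75 in wild type and at 10.88, 10.90 and 10.85 in ACC1 overexpression, and did not pass (adjusted p = 0.111). OYE3 stood at 11.13, 10.99 and 10.97 in wild type and at 10.79, 10.83 and 10.79 in ACC1 overexpression, a difference of −0.23 (standard error 0.06, adjusted p = 0.0857). Neither gene's groups overlapped, and at every array position OYE2 was higher and OYE3 lower in ACC1 overexpression. The probes are dim: OYE3 exceeded the control level on 2 wild type arrays and 1 ACC1 overexpression array, and no size of difference is given for OYE2, which did so on no wild type array.

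Of the 25 genes, these 2 moved most under the background corrections tried. With normexp at an offset of 50, OYE2 passed as higher (adjusted p = 0.0207) and OYE3 as lower, at −0.83 (adjusted p = 0.0155), and they were then the only ones of the 25 past the threshold. With the control probes as negative controls OYE2 again passed as higher (adjusted p = 0.0413) and OYE3 had a difference of −0.69 (adjusted p = 0.0220). With a common median and no correction OYE2 passed as higher (adjusted p = 0.0193), and OYE3 had a difference of −0.10 (adjusted p = 0.349).

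**Figure D2:**
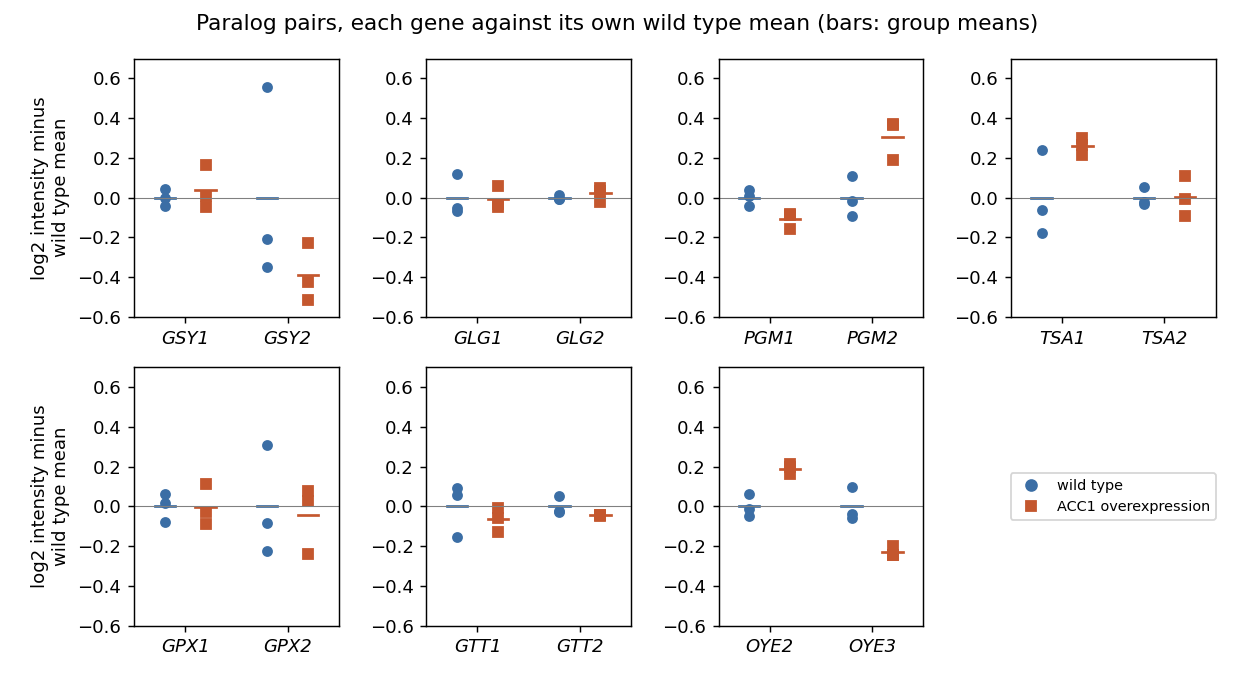
The 7 pairs of related genes, each array's log2 intensity minus the gene's own wild type mean (vertical axis). Circles are wild type arrays, squares ACC1 overexpression arrays and bars group means. OYE2, which was above the control level on no wild type array, lies above 0 and OYE3 below, PGM2 is above and PGM1 slightly below, TSA1 is above and TSA2 at 0, and GSY2 is spread by 1 wild type array.

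The 7 pairs of related genes allow a comparison within families. OYE2 and OYE3 are left out of the counts and gaps, since OYE2 was above the control level on no wild type array. Of the other 6 pairs, 3 had differences of opposite sign (GSY1 and GSY2, GLG1 and GLG2, PGM1 and PGM2). TSA1 and TSA2 shared a sign, as did GPX1 and GPX2 and GTT1 and GTT2. The gap within a pair, second gene minus first, was 0.42 for PGM2 and PGM1, −0.43 for GSY2 and GSY1 and −0.26 for TSA2 and TSA1, and at most 0.04 in size for the GLG, GPX and GTT pairs. Of the 14 genes of all 7 pairs none passed the threshold, so the signs describe these arrays and this processing only. Signs of small differences changed between the alternative settings. GLG1 was positive in 7 of 17, GPX1 in 4 of 17, TSA2 in 13 of 16 and PGM1 in 1 of 16. The difference between the genes of a pair was not tested.

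Storage carbohydrate and redox genes had similar medians and spreads. The 12 storage genes had a median difference of 0.013 on the log2 scale, with 7 positive and 5 negative and a range from −0.39 to 0.31. The 11 redox genes had a median of 0.0045, with 6 positive and 5 negative and a range from −0.23 to 0.26. They include OYE2, which was above the control level on no wild type array. With the filter on dim genes, 7 of 11 storage genes and 4 of 8 redox genes were positive. Over all 979 genes the median was −0.0088. The middle part of each list, between its quartiles, ran from −0.02 to 0.11 for storage and from −0.04 to 0.13 for redox, against −0.08 to 0.07 over all genes. Groups did not overlap for 4 genes of each list, 3 higher and 1 lower for storage and 2 higher and 2 lower for redox. Of all genes 24.7% did not overlap, 13.3% higher and 11.4% lower. Among the storage and redox genes without overlap, PGM1, OYE2 and OYE3 have dim probes.

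Array by array the lists also ran side by side. The median of the storage genes, each gene taken against its own mean over the arrays, was −0.06, −0.02 and 0.01 on the wild type arrays and −0.01, 0.02 and 0.01 on the ACC1 overexpression arrays. That of the redox genes was −0.08, −0.03 and −0.01 in wild type and −0.03, 0.05 and 0.05 in ACC1 overexpression. In both lists the wild type and ACC1 overexpression arrays overlapped. The storage median minus the redox median was 0.015 ± 0.0030 over the wild type arrays and −0.023 ± 0.032 over the ACC1 overexpression arrays (SD, 3 arrays each). By this summary storage stood lower against redox in ACC1 overexpression, with overlapping arrays. The median differences above had the opposite order, 0.013 for storage and 0.0045 for redox. The direction thus depends on the summary, and neither was tested.

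**Figure D3:**
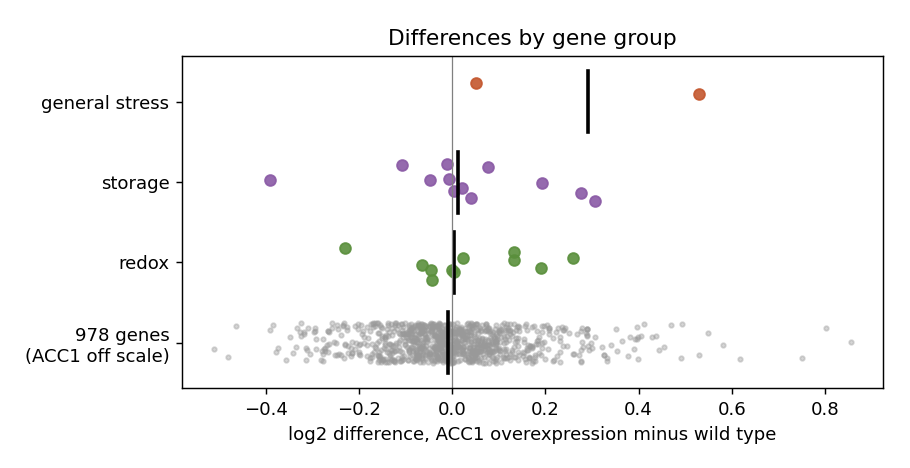
Log2 difference, ACC1 overexpression minus wild type, of each gene (horizontal axis) in the storage, redox and general stress groups and of the other genes of the array, with ACC1 itself off the scale. Black bars are medians. Storage and redox genes lie around medians of 0.013 and 0.0045, and the gene at 0.53 is HOR7.

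The wild type arrays were not equally far from ACC1 overexpression. Of the 25 genes, wild type replicate 3 was the wild type array nearest to the ACC1 overexpression mean for 16, replicate 2 for 5 and replicate 1 for 4. Over all genes replicate 3 was nearest for 45.1%. The median difference of the 25 was 0.05, 0.09 and 0.02 within positions 1, 2 and 3, against 0.01, −0.01 and −0.01 over all genes.

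Other genes of these pathways, from a list written with earlier results of these data known, included 39 measured genes, of which 1 rose and 1 fell, beside 3.47% of all genes called, 2.66% higher and 0.817% lower. HSP150, a cell wall glycoprotein induced by heat and by nitrogen limitation, rose by 0.45 (adjusted p = 0.0175), and CCP1, the mitochondrial cytochrome c peroxidase, fell by 0.33 on the log2 scale (adjusted p = 0.0282). ECM4, an omega-class glutathione transferase, had a difference of −0.29 (adjusted p = 0.0884), and all its ACC1 overexpression values lay below wild type. CCP1 passed in 6 of 17 alternative settings (difference from −0.38 to −0.14, the smallest with a common median, adjusted p = 0.442) and HSP150 in 13 of 17 (0.40 to 0.69). HSP150 missed the threshold without wild type replicate 2 (adjusted p = 0.0921) and without each ACC1 overexpression array (adjusted p from 0.0709 to 0.0984). None of 5 further storage genes passed an unadjusted p of 0.05.

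Of 8 genes of NADPH supply, which feeds the glutathione and thioredoxin systems, none passed and 7 had negative differences, where 525 of all 979 genes had one. Only 4 of the 8 lay above the control level on all 6 arrays, and SOL3, counted among the negative ones, on no array. IDP3 had the largest difference, −0.38 (adjusted p = 0.299), with overlapping groups and wild type arrays at 12.95, 12.24 and 12.08. Of 15 stress signalling genes none passed and 11 had negative differences, and 11 lay above the control level on all 6 arrays. SCH9, a nutrient-responsive kinase, had a difference of −0.26 (adjusted p = 0.111). HOT1, a factor of the osmotic response, had a difference of −0.20 (adjusted p = 0.209). The groups of each gene did not overlap.

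**Figure D4:**
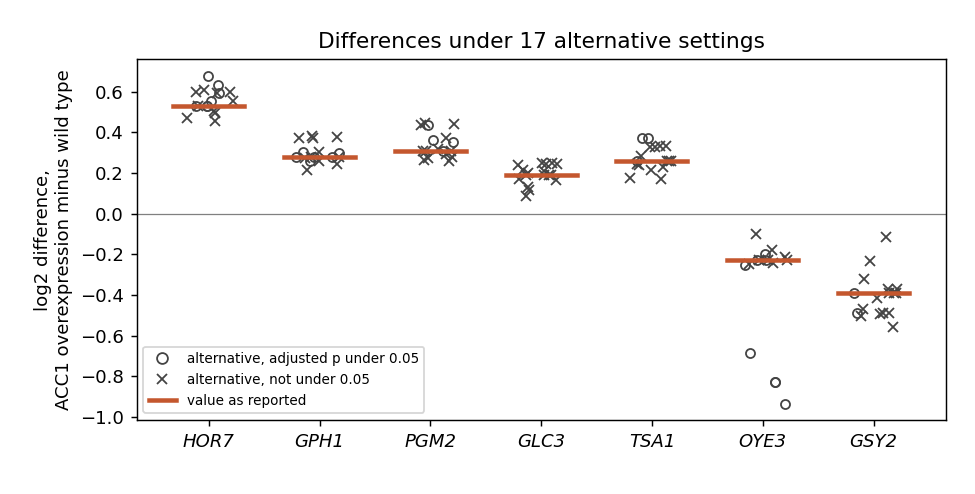
Log2 difference, ACC1 overexpression minus wild type (vertical axis), of 7 genes under the alternative settings, 17 for each gene and 16 for OYE3, which the filter on dim genes removed. Open circles passed an adjusted p of 0.05, crosses did not and bars are the values reported above. HOR7, GPH1, PGM2, GLC3 and TSA1 stayed above 0 and GSY2 below, while the values of OYE3 spread from −0.93 to −0.10.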

How the data were processed

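Per the file headers, each deposited scanner table gives the median foreground intensity per spot, for 2240 spots. Neither the software nor any background subtraction is stated in them. The authors' deposited value table holds scores of unstated scale, centring and direction for 906 rows (column medians from −0.15 to −0.06). Its row numbers did not follow the scanner probes (r from −0.053 to −0.036), so its rows were given no names and used only for a count.

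Intensities were taken to log2, quantile normalized over yeast spots and averaged per probe. Groups were compared with limma 3.58.1 (lmFit, eBayes; R 4.3.3), with two-sided p-values adjusted by Benjamini and Hochberg's method over 979 genes, at 0.05. The R64 gene table gave names and chromosomes for all 979 systematic names. The labels do not say whether the replicate numbers mark a shared batch, and the main fit did not take them as pairs. By the spot coordinates, however, arrays of the same number held the same layout position in both groups, which the main fit leaves out. Arrays sharing a replicate number deviated together with r of 0.467, −0.021 and 0.385 for numbers 1, 2 and 3. The values for numbers 1 and 3 are positive and give no reason against pairing, and their source was not tested. The choice matters: with the numbers as a replicate block, 121 genes passed over the whole array in place of 34. Among the genes of the rule, 6 passed in place of 2. The fit was tested on simulated data, where the share of false calls was above the nominal rate. This limit also applies to the calls of HOR7 and GPH1. The number of arrays limits the precision.

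Every measured gene of the rule was named. Array values were given for genes past the threshold, genes whose groups did not overlap, and the 2 smallest p-values per role. The genes and lists were chosen with earlier results of these data known. Promoter motifs, planned for description, were not analysed, since no promoter sequence was used here.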

Additional observations from a re-analysis of the deposited data

How the results depend on the processing

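The 2 genes of the 25 past the threshold became 0 at an adjusted p of 0.01, 4 at 0.1, 1 with a common median (OYE2, with HOR7 and GPH1 lost), 1 with trended, robust variances (OYE3, with HOR7 and GPH1 lost) and 6 with array weights, whose estimation stopped before it converged. With single arrays left out it lay between 0 and 6. It was 0 when wild type replicate 2 or any one ACC1 overexpression array was dropped, 1 (PGM2) when wild type replicate 1 was, and 6 (HOR7, GPH1, TSA1, SOD2 and OYE2 higher, OYE3 lower) when wild type replicate 3 was. Fewer arrays and fewer degrees of freedom enter those fits, and the cause of the larger counts was not tested. With normexp alone 2 passed, OYE2 and OYE3 in place of HOR7 and GPH1. With the replicate block 6 passed (HOR7, GPH1, PGM2 and TSA1 higher, OYE3 and GSY2 lower), and 6 with the replicate block and normexp at an offset of 50 (PGM2, HOR7 and OYE2 higher, PGM1, OYE3 and GSY2 lower). The 34 genes past the threshold over the whole array became 5 at 0.01, 68 at 0.1, 74 with a common median, 176 with array weights, 121 with the replicate block and 142 with the block and normexp, and lay between 4 and 123 when single arrays were dropped. The authors' value table gave 32 of its 906 rows. These rows could not be matched to genes, so whether any of the 34 are among them is not known.

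The redox median of 0.0045 was 0.0792 with a common median, where the median over all genes was 0.0502, and lay between −0.0067 and 0.0486 when single arrays were dropped. The storage median of 0.0127 lay between −0.0063 and 0.0608. Storage minus redox, 0.0082, was −0.0566 with a common median and lay between −0.0374 and 0.0674, and its sign changed between settings. ACC1 stayed between 2.25 and 3.01. Of 421 values of single genes under 17 settings, 374 stayed on the same side of the threshold, most of them of genes that had not passed. Another 21 fell short of it, 26 newly passed and 0 past it changed sign. The 21 were all values of HOR7 and GPH1, the only genes that could lose a call. HOR7 passed in 7 of 17 settings and GPH1 in 6 of 17. The dim genes PGM1, TSA2, OYE2 and OYE3 were removed by the filter. Signal over background limits the differences of dim genes, and depth here is the number of arrays.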
